A study of Mus musculus with 6 samples.

Results

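The genes described here are 9 genes of the complement system, taken as the rows of the deposited gene list with the symbols C3, C4b, C2, Cfb, Cfd, Serping1, Cd55, C3ar1 and C5ar1, out of 41605 genes counted in every library. They were followed in single cells of the mouse sciatic nerve on day 1 (P1) and day 60 (P60) after birth, across the fibroblasts of the 3 layers of the nerve, Schwann cells, endothelial cells and macrophages. The genes were chosen by the measured rise of C3 between the ages in these libraries, together with its pathway, so the levels of C3 at both ages are given as a description with no test.

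Complement is a cascade of plasma and tissue proteins. C4 and C2 form the C3-cleaving enzyme of the classical and lectin pathways, and C3 itself with factor B (Cfb), which is cut by factor D (Cfd), forms that of the alternative pathway. The cleavage of C3 tags surfaces for uptake by phagocytes, and the small fragments of C3 and C5 act on the receptors C3ar1 and C5ar1 of myeloid cells. Serping1 encodes the C1 inhibitor, which blocks the proteases that start the classical and lectin pathways, and Cd55 encodes decay accelerating factor, a membrane protein that takes apart C3-cleaving enzymes on host cells.

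Each age was represented by 3 libraries (replicates 1 to 3). Both groups of mice were on the C57bl/6J background and carried the same alleles: a Cre that is active in Schwann cells, a Rosa26 yellow fluorescent reporter that this Cre switches on, and a DsRed transgene under the chicken beta actin promoter, active in all cells. The nerves of several animals, males and females in equal numbers, were pooled for each cell suspension, DsRed-positive cells were sorted by flow cytometry, and the P1 sort discarded a fraction of the Schwann cells. Single cells were captured in droplets (10x Genomics Chromium) and RNA was counted near its 3′ end as molecules with a unique molecular identifier (UMI). Replicates are separate suspensions. Age is the only contrast in the labels, and the discarding of Schwann cells at P1 alone cannot be told apart from it.

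The libraries held 3435 to 4586 kept cells with 20092957 to 29371559 UMIs each. P60 replicate 3 stood apart: its median was 3627 UMIs per cell, and 16.2% of its cells had more than 10% mitochondrial counts. Cells were put into classes from markers, so a class name means a likeness by marker genes, and classes were built without complement genes. Endoneurial, epineurial and perineurial fibroblasts (the inner tissue, the outer sheath and the sheath around each fascicle) numbered 1396, 919 and 1011 cells at P1 and 855, 4546 and 2455 at P60. Schwann cells, the glia of the nerve, were kept where they had fewer than 10 UMIs of the fibroblast gene Dcn, which left 3168 cells at P1 and 370 at P60. Endothelial cells numbered 726 and 1802, macrophages 891 and 963. A level is the sum of a gene's UMIs over the cells of a class in 1 library, scaled to CPM (the standard scaling to a common total) by all UMIs of those cells, and means are given ± SD over 3 libraries. The Schwann marker list summed to 22476 to 35782 CPM in P60 Schwann cells and to 63.6 to 218 CPM in the other classes, and the macrophage list to 4331 to 5451 CPM in P60 macrophages and to 11.8 to 172 CPM elsewhere. The label Schwann cell was less clean for fibroblast RNA, since the fibroblast list still summed to 2134 to 3087 CPM in the P60 Schwann libraries. The layer names were less clean too. P1 perineurial fibroblasts had 414 to 479 CPM of the perineurial list but 879 to 987 CPM of the epineurial list. P60 endoneurial fibroblasts had 1015 to 1147 CPM of the endoneurial list and 898 to 1343 CPM of the epineurial list. A further 2001 fibroblasts at P1 took no layer name and were not used.

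C3, the central component of the cascade, was near 0 in every class at P1 and highest in epineurial fibroblasts at P60. In epineurial fibroblasts it had 3.33, 5.41 and 0.442 CPM in P1 replicates 1 to 3, 18 UMIs in all. At P60 the libraries had 1129, 1084 and 1207 CPM, or 1140 ± 62.2, from 27580 UMIs. The ages did not overlap, and the ratio of pooled levels was 384-fold with a counting interval of 243 to 648 (95%, exact).

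In Schwann cells not one C3 UMI was counted at P1 among 20192566, whereas P60 replicates 1 to 3 had 166, 143 and 224 CPM, from 180 UMIs. Against the floor of 3 UMIs over the P1 group, C3 was at least 1249-fold higher at P60. Macrophages had 0.414, 2.22 and 0.804 CPM at P1 and 98.3, 110 and 103 CPM at P60. At P60 the mean levels then followed in the order endothelial cells (59.6), mural cells, the pericytes and smooth muscle cells of vessels (53.9), perineurial fibroblasts (47.9) and endoneurial fibroblasts (43.8). The libraries of these 4 classes overlapped, so their order is not resolved, while the libraries of epineurial fibroblasts, Schwann cells and macrophages each lay clear of the class below. The place of macrophages rests on 72 cells with 10 or more Dcn UMIs, which held 256 of the 403 C3 UMIs, and macrophages without Dcn had 38.0 CPM.

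**Figure D1:**
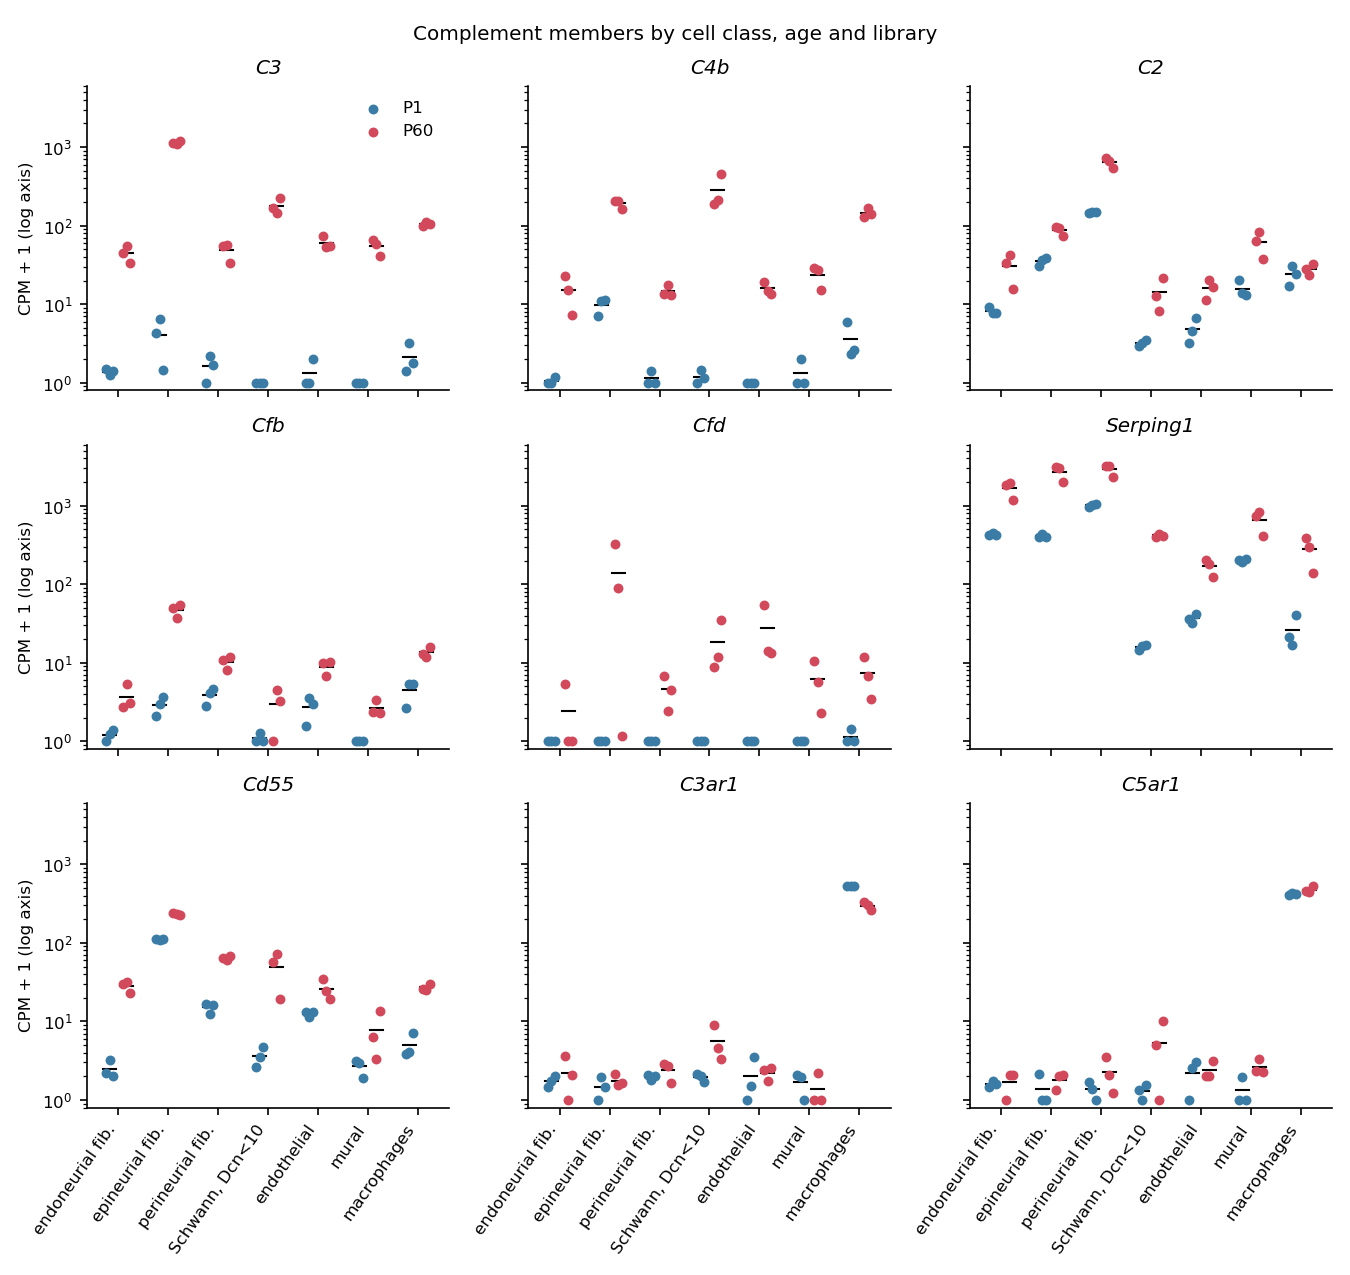
Level of each of the 9 genes (CPM + 1, log axis) in 7 cell classes, with P1 libraries in blue, P60 libraries in red and a black line at the mean of 3 libraries. C3 and C4b lie at the foot of the axis in nearly all classes at P1, C2 and Serping1 are already present in fibroblasts at P1, and the receptors C3ar1 and C5ar1 are seen in macrophages.

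The promoter of C3 is shown because C3 is the central component and because its start holds 1 motif in 3 nearby copies. The gene lies on chromosome 17 (GRCm38, 57203970 to 57228136, minus strand). C4b (34728380 to 34743882), Cfb (34856374 to 34862518) and C2 (34862604 to 34898265) lie together on chromosome 17, all on the minus strand, with C2 ending next to Cfb. Cfd is on chromosome 10 (79890853 to 79892655, plus strand), Serping1 on 2 (84765387 to 84775444), Cd55 on 1 (130439027 to 130462744), C3ar1 on 6 (122847138 to 122856161) and C5ar1 on 7 (16246743 to 16259540), the last 4 on the minus strand. The C3 promoter window runs from 250 bases before to 50 bases after the RefSeq start, chr17:57228087-57228386 of GRCm38.p6, read on the minus strand from 5′ to 3′. Capitals mark TTNNGNAA, a core of the C/EBP site, and TATAAA.

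C3 promoter: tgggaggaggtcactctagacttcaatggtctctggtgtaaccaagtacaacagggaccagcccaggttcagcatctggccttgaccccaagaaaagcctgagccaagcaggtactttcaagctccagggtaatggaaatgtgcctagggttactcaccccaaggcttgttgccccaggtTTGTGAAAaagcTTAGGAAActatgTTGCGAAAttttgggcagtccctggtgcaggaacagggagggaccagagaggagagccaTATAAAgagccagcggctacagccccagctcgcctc

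TTNNGNAA stood at −70 to −63, −58 to −51 and −45 to −38 from the start. The search covered both strands, and the copy nearest the start, read TTGCGAAA, matched on both. At least 1 match was found in 40.7% of 32851 promoters of the same length and matches at 3 or more positions in 3.6%. TATAAA stood at 15 to 20, after the annotated start, and occurred in 13.6% of promoters. The table held promoters for 5 of the 9 genes. C5ar1 had 1 TTNNGNAA (−157 to −150), C3ar1 had TATAAA (−235 to −230) and the NF-kB motif (−14 to −5, found in 1.63% of promoters), and neither Cfd nor Cd55 held any motif searched, which also included the STAT motif TTCNNNGAA (8.3%) and an interferon response motif (3.44%). These matches describe letters in the window, not sites in use.

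C4b, the C4 of the classical and lectin pathways, had at most 4.97 CPM in any P1 library outside epineurial fibroblasts. In that class it had 6.10, 9.83 and 10.2 CPM at P1 and 206, 204 and 162 CPM at P60, a log2 change of 4.37 ± 0.20 (SE; edgeR quasi-likelihood test, adjusted p = 3.37e-08). In Schwann cells 4 UMIs were found at P1 (0, 0.437 and 0.139 CPM) and 303 at P60 (186, 214 and 449 CPM), a ratio of pooled levels of 1577-fold with a counting interval of 610 to 5824. With so few P1 UMIs the gene passed the filter on low counts through P60 alone, so no p is given for it in this class. The ages were separated in both classes, and the P60 mean of Schwann cells, 283 ± 144 CPM, was drawn up by replicate 3. Without that library the fitted log2 change in Schwann cells was 9.64 ± 0.38, beside 10.26 ± 0.48 with it. Macrophages went from 4.97, 1.33 and 1.61 CPM to 127, 166 and 139 CPM, a fitted log2 change of 5.78 ± 0.30. There too C4b passed the filter only through P60, so no p is given. Endoneurial and perineurial fibroblasts reached 14.1 and 13.6 CPM at P60 from 1 UMI each at P1, and endothelial cells 14.9 CPM from 0 UMIs, at least 28.1-fold higher. C4b shares sequence with its neighbour C4a: 19.8% of the 91-base stretches in its last 500 transcript bases also occur there, so its level is uncertain. The mean of C4a did not pass 3.81 CPM in any class, and its 5 UMIs in P60 Schwann cells all lay in replicate 3 (11.4 CPM), the library with the highest C4b.

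C2, the protease that joins C4, was the component already present at P1, and perineurial fibroblasts held the highest level at both ages. Their P1 libraries had 145.6, 146.1 and 146.5 CPM and their P60 libraries 718, 670 and 536 CPM. The mean rose from 146 ± 0.452 to 641 ± 94.5 CPM, a log2 change of 2.14 ± 0.13 (edgeR adjusted p = 5.99e-08). C2 also rose in epineurial fibroblasts, from 34.3 to 87.1 CPM (log2 change 1.28 ± 0.16, edgeR adjusted p = 6.44e-05), and in endoneurial fibroblasts, from 7.23 to 29.7 CPM (2.10 ± 0.31, adjusted p = 9.82e-05). In macrophages it had 16.2, 29.8 and 23.3 CPM at P1 and 27.3, 22.6 and 31.2 CPM at P60, overlapping values that did not pass the test (log2 change 0.30 ± 0.24, edgeR adjusted p = 0.35).

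Cfb and Cfd, the proteases of the alternative pathway, were low in most classes. Cfb rose in epineurial fibroblasts from 1.11, 1.97 and 2.65 CPM to 49.4, 36.5 and 53.8 CPM (fitted log2 change 4.49 ± 0.29). It was also higher at P60 in perineurial fibroblasts (2.88 to 9.21 CPM), endothelial cells (1.72 to 7.97 CPM) and macrophages (3.51 to 12.6 CPM). In each of these classes Cfb passed the filter on low counts only through P60, so no p is given. Reads of Cfb may be lost in counting, because 90.7% of the 91-base stretches near its 3′ end also occur in the overlapping read-through gene Gm20547, which itself had 1 UMI in all classes together.

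Cfd was not counted at P1 in fibroblasts, Schwann cells, endothelial cells or mural cells, and at P60 most of its UMIs in epineurial fibroblasts lay in single cells. Epineurial fibroblasts had 324, 87.7 and 0.158 CPM in P60 replicates 1 to 3, a spread wider, relative to the mean, than that of any other member in this class. Nearly all of the 3684 UMIs lay in 5 cells, with 1547, 1240 and 24 UMIs in replicate 1 and 598 and 178 in replicate 2. Across the libraries 12 cells had 10 or more Cfd UMIs, all at P60. The 5 epineurial cells also held 297 to 542 UMIs of Car3 and 45 to 137 of Adipoq, both genes of fat cells. The marker list of fat cells (Adipoq, Plin1, Car3, Cdo1) summed to 243, 242 and 4.57 CPM in the P60 epineurial libraries, so it was lowest with Cfd in replicate 3 but did not differ between replicates 1 and 2 as Cfd did. Endothelial cells had 54.2, 13.1 and 12.5 CPM of Cfd at P60, beside 28.3, 21.7 and 35.6 CPM of the list, which did not follow it. In replicate 1, 1 endothelial cell held 120 of the 250 Cfd UMIs of the class, with 30 UMIs of Car3 and 7 of Adipoq, whereas in replicate 3 the 41 UMIs were spread over 21 cells. At 1500 UMIs per cell Cfd was found in 2.09%, 1.92% and 2.00% of endothelial cells at P60. The part of fat cells in the level of Cfd was not tested.

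Among the regulators, Serping1, the C1 inhibitor, was the most widespread gene, present at P1 in all 3 fibroblast layers and higher at P60 in each of the 6 tested classes. Perineurial fibroblasts had 971, 1023 and 1053 CPM at P1 and 3226, 3190 and 2336 CPM at P60 (log2 change 1.53 ± 0.13, edgeR adjusted p = 1.32e-06). Epineurial fibroblasts had 398, 433 and 401 CPM at P1 and 3076, 3016 and 2001 CPM at P60 (2.66 ± 0.16, edgeR adjusted p = 2.68e-07). Endoneurial fibroblasts had 417, 443 and 419 CPM at P1 and 1844, 1950 and 1185 CPM at P60 (2.03 ± 0.17, edgeR adjusted p = 4.59e-07). All 3 layers were separated by age, and P60 replicate 3 was the lowest P60 library in each. Schwann cells had 13.4, 15.6 and 15.8 CPM at P1 and 396, 442 and 414 CPM at P60, a log2 change of 4.71 ± 0.12 (edgeR adjusted p = 2.08e-12). Endothelial libraries lay between 31.3 and 40.6 CPM at P1 and between 122 and 203 CPM at P60, and macrophage libraries between 16.0 and 40.2 CPM and between 139 and 392 CPM. Of the 1012 UMIs in P60 macrophages, 732 lay in the 72 cells with 10 or more Dcn UMIs, and macrophages without Dcn had 73.6 CPM. Among P60 endothelial cells 96 such cells held 825 of 1699 UMIs, and those without Dcn had 81.4 CPM.

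The rise of Serping1 differed between cell types. In a fit of both classes with the library as a block, the log2 change was 2.76 ± 0.16 larger in Schwann cells than in endoneurial fibroblasts (edgeR adjusted p = 4.09e-24), and 0.63 ± 0.08 smaller in endoneurial than in epineurial fibroblasts (difference −0.63, edgeR adjusted p = 6.9e-12). The difference between Schwann cells and endoneurial fibroblasts did not pass for C2 (0.57 ± 0.55, edgeR adjusted p = 0.532). For C4b (3.10 ± 2.65) and Cd55 (−0.28 ± 0.50) no p is given, since both passed the filter on low counts only through P60 in these classes. Of all genes tested, 29.2% passed for the pair of fibroblast layers and 19.7% for Schwann cells against endoneurial fibroblasts.

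Cd55, decay accelerating factor, marked the epineurial layer at both ages. Its libraries had 110, 109 and 110 CPM at P1 and 238, 235 and 223 CPM at P60 (log2 change 1.02 ± 0.11, edgeR adjusted p = 2.56e-05). In endoneurial fibroblasts it went from 1.18, 2.20 and 0.998 CPM to 28.9, 31.2 and 22.2 CPM (fitted log2 change 4.29 ± 0.32), from a P1 base of 19 UMIs. The change was larger there than in the epineurial layer (difference 3.28 ± 0.33, edgeR adjusted p = 1.85e-15). The epineurial marker list also rose in endoneurial fibroblasts. It summed to 55.8 to 86.2 CPM at P1 and 898 to 1343 CPM at P60, beside 10622 to 12159 CPM in P60 epineurial fibroblasts. What part epineurial RNA had in the endoneurial rise of Cd55 was not tested. Schwann cells had 1.63, 2.48 and 3.75 CPM of Cd55 at P1 and 55.4, 71.3 and 18.3 CPM at P60 (fitted log2 change 3.94 ± 0.49). In endoneurial fibroblasts and Schwann cells Cd55 passed the filter on low counts only through P60, so no p is given for its rise there. Cd55 was higher at P60 as well in perineurial fibroblasts (14.1 to 63.2 CPM), endothelial cells (11.5 to 25.1 CPM) and macrophages (4.01 to 26.1 CPM). Of the 103 UMIs in P60 macrophages, 69 lay in the 72 cells with 10 or more Dcn UMIs, and the 272 macrophages without Dcn had 6.90 CPM. Endothelial cells without Dcn had 17.9 CPM. The part of fibroblast RNA in these levels was not tested. A non-coding gene, Gm16083, overlaps Cd55 on the other strand, and whether counting used the strand is not given in the sources used here.

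The receptors for the fragments of C3 and C5 were macrophage genes, with at most 4.59 CPM in any other class mean. C3ar1 was the only one of the 9 genes that fell in a tested class. Macrophages had 528, 531 and 523 CPM at P1 and 328, 299 and 258 CPM at P60, a log2 change of −0.78 ± 0.13 (edgeR adjusted p = 0.00064). C5ar1 had 403, 427 and 412 CPM at P1 and 456, 445 and 531 CPM at P60. Its ages did not overlap, but the log2 change of 0.26 ± 0.12 did not pass the test (edgeR adjusted p = 0.0956).

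**Figure D2:**
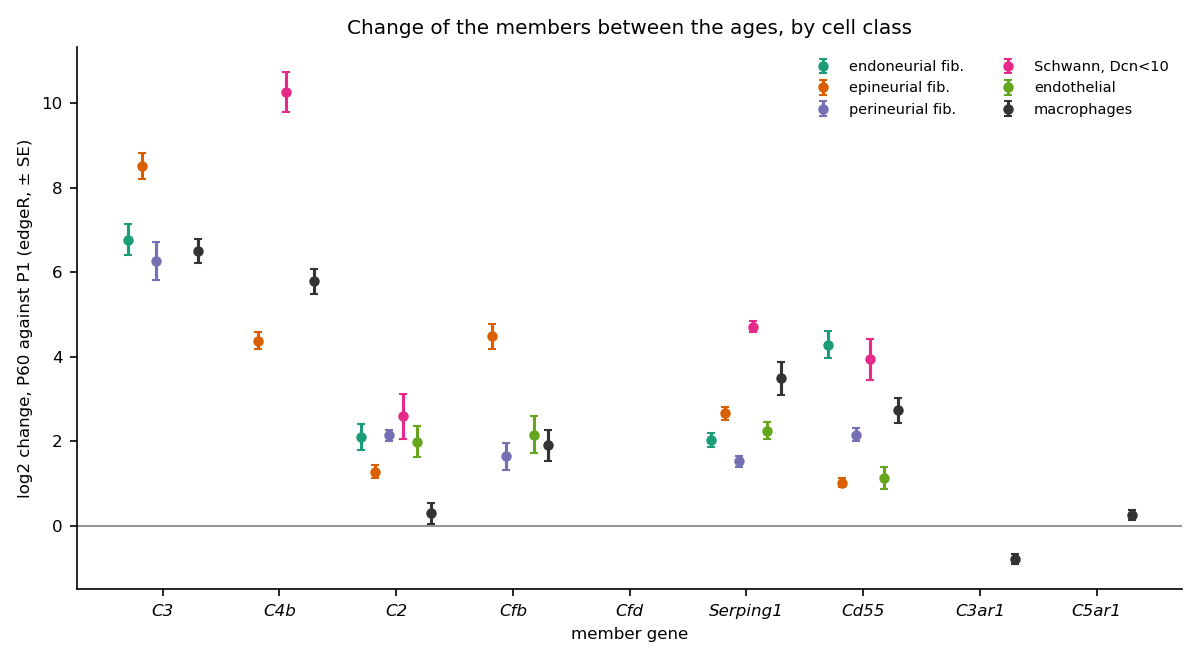
Log2 change from P1 to P60 (edgeR, ± SE) for each gene in each of 6 cell classes, where the gene passed the filter on low counts and had more than 3 UMIs at P1 in that class. Points above the line at 0 are higher at P60. C3ar1 in macrophages, at −0.78, is the point below the line, and C3 is shown as a description with no test.

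Read by class, the members other than C3 mostly rose. In endoneurial fibroblasts 4 of 8 were tested and 4 were higher at P60, where 46.2% of all genes tested were called, 22.3% higher and 23.9% lower. In epineurial fibroblasts 5 were tested and 5 were higher, against 40.8% of all genes called (21.5% higher, 19.3% lower). In perineurial fibroblasts 5 were tested and 5 were higher, against 55.1% called (28.5% higher, 26.6% lower). Schwann cells had 5 tested and 5 higher, against 38.2% called (19.9% higher, 18.4% lower). Endothelial cells had 6 tested and 6 higher, against 40.1% called (21% higher, 19% lower). In macrophages 7 were tested, 4 were higher, C3ar1 was lower and C2 and C5ar1 did not pass, against 39.1% called (21.2% higher, 17.9% lower). The median log2 change of the tested members was 3.20 in endoneurial, 2.66 in epineurial and 2.14 in perineurial fibroblasts, 4.71 in Schwann cells, 2.21 in endothelial cells and 1.90 in macrophages, beside −0.02 to 0.04 over all genes. A gene near 0 at P1 passed the filter on low counts only where it was high at P60. These counts and medians therefore hold genes that had to differ, and neither is a result about the members as a set. These were C4b outside epineurial fibroblasts, Cfb in each class tested and Cd55 in endoneurial fibroblasts, Schwann cells and macrophages. C2 in Schwann and endothelial cells and Cfd were further ones. Of the Schwann calls, C2 (13.2 CPM at P60, fitted log2 change 2.59 ± 0.52) and Cfd (20 UMIs) were the fragile ones: leaving out P1 replicate 1, 2 or 3 put both below the filter, and without P60 replicate 3 Cfd was below it and C2 did not pass the test, which leaves 3 calls in each case.

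The share of cells with a UMI was compared at 1500 UMIs per cell, since P60 cells were shallower (the median in Schwann cells was 6031 UMIs at P1 and 2231.5 at P60). This left out 33 epineurial and 16 Schwann cells at P60 and none at P1. C3 was then found in 0.336% of epineurial fibroblasts at P1 and in 67.0% ± 1.36 at P60 (1.24% and 85.1% with all UMIs). In Schwann cells C3 was in 0% and 15.4% ± 3.18 (0% and 19.8%), where 0 of 3168 P1 cells allows up to 0.0947% of cells with a UMI, which does not limit the share of cells expressing the gene, and C4b in 0.0235% and 27.4% ± 10.1 (0.118% and 33.1%). C2 went from 19.0% to 56.1% of perineurial fibroblasts and Serping1 from 2.26% to 41.4% ± 0.853 of Schwann cells. C3ar1 went from 52.6% to 35.1% ± 3.67 of macrophages (90.7% and 61.4% with all UMIs), beside 0.0629% to 0.524% of the cells of any other class at P60. For C3 no class is known to lack the gene, and the lowest share at P60 was 4.68% in mural cells, with 4.81% in endoneurial fibroblasts, 5.88% in perineurial fibroblasts and 6.45% in endothelial cells (median depths 3197 to 6459 UMIs). For C4b, C2, Serping1 and C3ar1 in these classes the exact two-sided permutation p was 0.1, the smallest that 3 libraries against 3 allow, and the shares of C3 were not tested.

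How far fibroblast RNA reached the other classes was measured with Dcn. The donor was the sum of the 3 fibroblast layers. Their C3 at P60 was 1140 CPM in the epineurial, 47.9 in the perineurial and 43.8 in the endoneurial layer. The expected level therefore depends on which layer gave the RNA, and this was not tested. At P60 the Dcn left in Schwann cells corresponds to 14.6 CPM of C3 (12.6 to 17.7 by library) if all of it came with fibroblast RNA, and the measured C3 of 178 CPM was 12.1 times this. For C4b the measured level was 115 times the expected one, for Cd55 14.04 times, for Serping1 6.98 times and for C2 2.02 times. These values are for cells chosen to have little Dcn, which lowers the expected level. Over all 419 P60 Schwann cells C4b was 14.02 times the expected level, C3 2.58 times, Cd55 2.11 times, Serping1 1.56 times and C2 0.473 times. In macrophages C4b was 14.8 times and C3 1.83 times the expected level, Serping1 1.17 times and C2 1.06 times. In endothelial cells C3 was 2.00 times, Serping1 1.34 times and C2 1.12 times. Serping1 and C2 in macrophages and endothelial cells therefore lay within 1.34 times the level expected from their Dcn, and the part of fibroblast RNA in their rise was not tested further.

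C3 and C4b did not vary alike with the Dcn of a cell. The 160 P60 Schwann cells without a Dcn UMI had 204, 102 and 196 CPM of C3 (175 pooled, 62 UMIs) and 179, 227 and 477 CPM of C4b (349 pooled), and the 174 cells with 1 or 2 Dcn UMIs had 206 and 307 CPM. In the 49 Schwann cells with 10 or more, which are not in the class, C3 was 799 CPM beside an expected 512. Of the P60 macrophages, the 272 cells without Dcn had 38.0 CPM of C3 and the 72 cells with 10 or more had 501, 500 and 566 CPM, 256 of the 403 C3 UMIs of the class. C4b of macrophages went the other way, with 161 CPM without Dcn and 81.4 CPM at 10 or more. Endothelial cells had 23.9 CPM of C3 without Dcn and 392 CPM in the 96 cells with 10 or more, which held 309 of their 595 C3 UMIs. The C3 of macrophages and endothelial cells without Dcn, 38.0 and 23.9 CPM, stood beside 43.8 CPM in endoneurial and 47.9 CPM in perineurial fibroblasts, and free RNA was not measured in empty droplets.

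**Figure D3:**
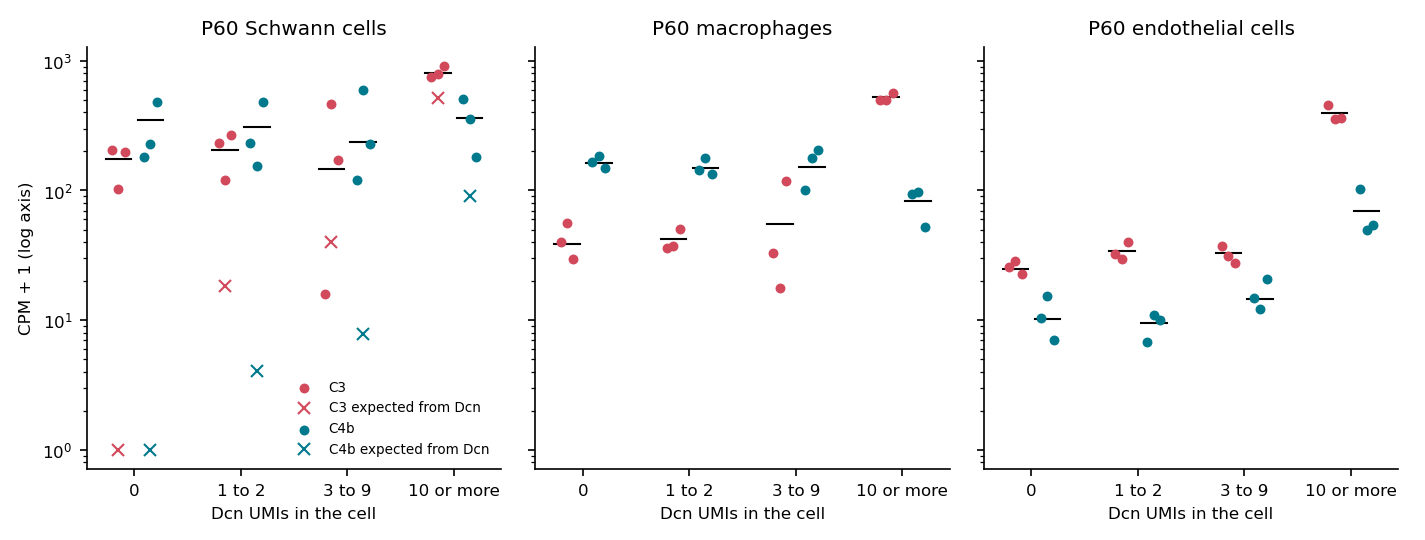
C3 (red) and C4b (teal) in P60 Schwann cells, macrophages and endothelial cells (CPM + 1, log axis) by the number of Dcn UMIs in the cell, with points for libraries, black lines for the pooled level and crosses for the level expected from Dcn in Schwann cells. C3 is far above the crosses in Schwann cells with fewer than 10 Dcn UMIs, whereas in macrophages and endothelial cells it is high in the cells with 10 or more.

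Within the P60 Schwann cells most C3, C4b and Serping1 UMIs lay in 1 sub-cluster, made without complement genes among the clustering features. Its 164 cells led with Scn7a, Cdh2 and Apoe and had 3753 CPM of Scn7a, a gene of non-myelinating Schwann cells, against 46.2 and 10.1 CPM in the next 2 sub-clusters, and 5.73 CPM of Ncmap, a gene of myelinating Schwann cells, against 1974 and 1831 CPM. Scn7a had 788 and 186 CPM in the sub-clusters of 13 and 42 cells. Of 3 further genes that the paper uses for non-myelinating cells, Ncam1 (776 CPM) and L1cam (289 CPM) were also highest in the 164 cells. Ngfr went the other way, with 60.1 CPM there and 485 CPM in the 42 cells. The Scn7a sub-cluster held 517, 296 and 386 CPM of C3, 643, 616 and 951 CPM of C4b and 1161, 986 and 773 CPM of Serping1. The sub-cluster led by Emid1, Fabp4 and Cuedc2 had 30.8, 7.59 and 131 CPM of the same genes, and that led by Spp1 and H2-DMa had 24.7, 10.9 and 74.6 CPM. Cd55 was placed differently, with 31 of its 42 UMIs in the Spp1 sub-cluster (166, 284 and 55.2 CPM). A further sub-cluster of 13 cells led by the fibroblast genes Gpx3, Sfrp4 and Dpt, 10 of them from P60 replicate 3, had 705 CPM of C3.

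The Scn7a sub-cluster kept these levels in its cells without a Dcn UMI. In 79 such cells C3 was 367 CPM (counting interval 279 to 475; 487, 314 and 345 by library) and C4b 760 CPM (630 to 909), found in 53 of the cells. In the other 81 Schwann cells without Dcn, C3 was 20.3 CPM (5.53 to 51.9) and C4b 20.3 CPM, from 4 UMIs each. Serping1 was 849 CPM (711 to 1006) and 132 CPM (86.1 to 193) in the same groups. With the fibroblast-led sub-clusters of Schwann cells left out, an alternative chosen after seeing the data, the fitted log2 change of C4b was 10.56 and 4 members were called. Of all 11189 genes tested in this setting, 4228 were called, 2213 of them higher at P60. In Schwann cells C4b, C2, Cfd and Cd55 passed the filter on low counts only through P60, so the count is not a result about the members.

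**Figure D4:**
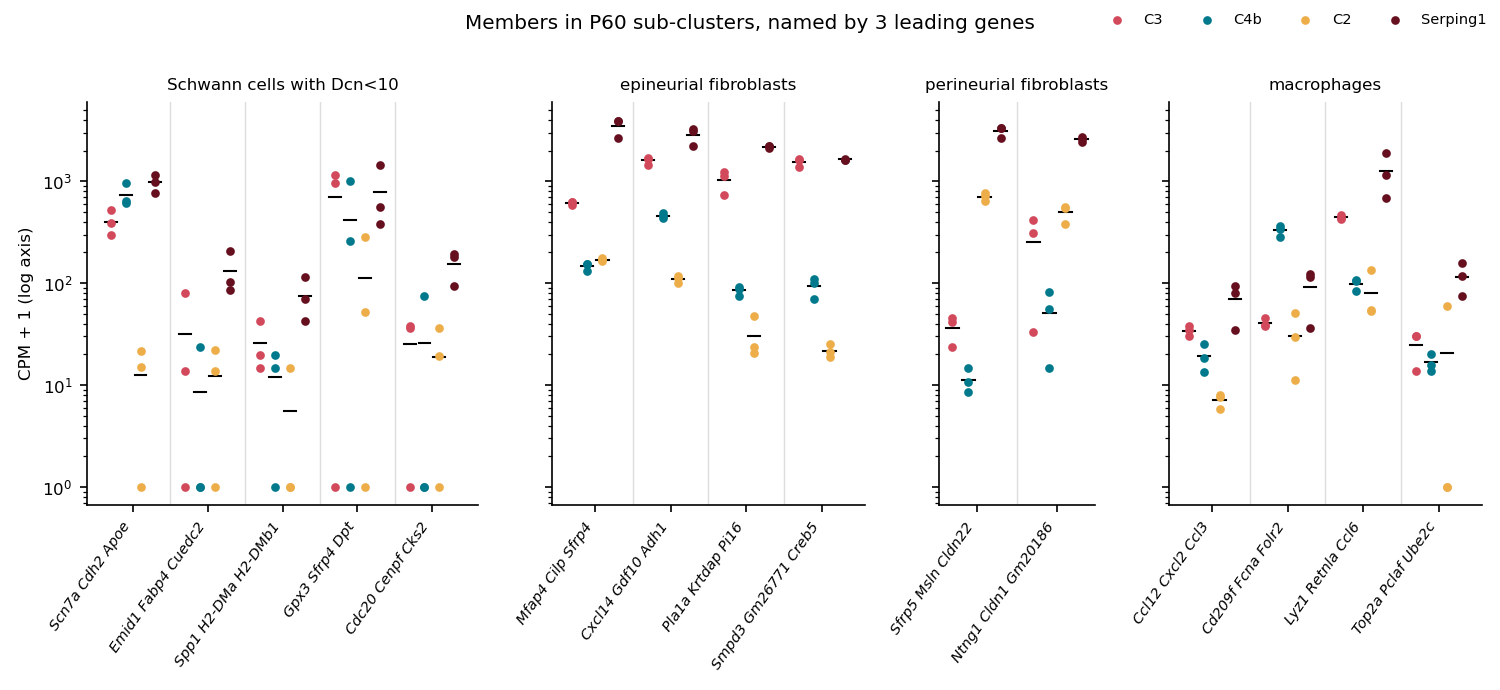
C3 (red), C4b (teal), C2 (yellow) and Serping1 (dark red) in P60 sub-clusters of 4 cell classes (1 perineurial sub-cluster is not shown), each named by 3 leading genes (CPM + 1, log axis), with points for libraries and lines for their mean. C3, C4b and Serping1 are higher in the Scn7a sub-cluster than in the Emid1, Spp1 and Cdc20 sub-clusters of Schwann cells, and C4b is highest in the Cd209f sub-cluster of macrophages.

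The epineurial fibroblasts of P60 fell into 4 sub-clusters with different complement genes in the lead. The 1256 cells led by Cxcl14, Gdf10 and Adh1 had 1602 ± 125 CPM of C3 and 459 ± 23.4 CPM of C4b, against 612 ± 20.1 and 146 CPM in the 1403 cells led by Mfap4, Cilp and Sfrp4. C2 was higher in the Mfap4 cells, at 169 ± 5.27 CPM against 109 CPM. Cd55 was highest in the 1174 cells led by Pla1a, Krtdap and Pi16, at 449 ± 11.6 CPM against 76.6 CPM in the Cxcl14 cells. The 713 cells led by Smpd3, with 1560 CPM of C3, came to 93.3% from P60 replicate 3, so that library and this sub-cluster cannot be told apart. At 1500 UMIs per cell C4b was found in 24.6% ± 2.99 of epineurial cells with a C3 UMI and in 11.8% ± 0.635 of those without, higher in 3 of 3 libraries. C2 was found in 9.60% and 14.03%, higher with C3 in 0 of 3 libraries.

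In perineurial fibroblasts C2 had 704 CPM in the cells led by Sfrp5, Msln and Cldn22 and 498 CPM in those led by Ntng1 and Cldn1. The Ntng1 cells came to 89.1% from P60 replicate 3. In macrophages C4b was a gene of the 367 cells led by Cd209f, Fcna and Folr2, at 285, 359 and 341 CPM, against 18.1 CPM in the 445 cells led by Ccl12, Cxcl2 and Ccl3. Their cells without a Dcn UMI gave 357 CPM (298 to 426, 110 cells) and 15.5 CPM (6.23 to 31.9, 145 cells). The receptors were ordered the other way, with C3ar1 at 474 CPM and C5ar1 at 683 CPM in the Ccl12 cells and 231 and 478 CPM in the Cd209f cells. C3 was highest in the 117 macrophages led by Lyz1, Retnla and Ccl6 (432, 424 and 466 CPM), of which 59.0% had 10 or more Dcn UMIs and in which those cells held 256 of 288 C3 UMIs. What part fibroblast RNA or joined cells had in these 117 cells was not tested.

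Of a wider list of complement genes, 49 were in the files. In endoneurial, epineurial and perineurial fibroblasts 9 of 15, 10 of 19 and 15 of 18 tested genes were higher at P60, beside 22.3%, 21.5% and 28.5% of all genes tested, and 2, 0 and 0 were lower, beside 23.9%, 19.3% and 26.6%. In Schwann cells 15 of 16 were higher (19.9% of all genes) and 1 lower (18.4%), in endothelial cells 7 of 14 (21%) and 1 (19%), and in macrophages 11 of 17 (21.2%) and 1 (17.9%). The list does not hold the members, and some of its genes passed the filter on low counts only through P60. The Schwann calls include C1qa, C1qb, C1qc, Cfp and Fcna, and those of each fibroblast layer include C1qa. The macrophage marker list in Schwann cells summed to 9.63 to 14.9 CPM at P1 and 23.8 to 172 CPM at P60. The part of macrophage RNA in these calls was not tested. The proteases that act beside C2 and C4b rose in fibroblasts: C1s1 went from 100 to 577 CPM in the endoneurial layer (log2 change 2.59 ± 0.15) and C1ra from 61.4 to 356 CPM in the epineurial layer (2.48 ± 0.18).

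The inhibitors of the terminal step rose in several classes. Cd59a, which blocks the terminal pore, rose in Schwann cells from 47.1 to 581 CPM (3.597 ± 0.18, edgeR adjusted p = 1.75e-09), and Clu, an inhibitor of the same step, in endothelial cells from 15.8 to 595 CPM (5.24 ± 0.18, edgeR adjusted p = 4.14e-09). Clu also rose in Schwann cells (7.63 ± 0.39) and in endoneurial, epineurial and perineurial fibroblasts (1.96, 1.49 and 2.51). Cd59a also rose in epineurial and perineurial fibroblasts (2.57 and 2.20), endothelial cells (1.98) and macrophages (1.09). It did not pass in endoneurial fibroblasts (0.27 ± 0.21, edgeR adjusted p = 0.32). Vtn, vitronectin, was highest in perineurial fibroblasts, at 694 CPM, and had 17.4 CPM in Schwann cells and 19.6 CPM in endothelial cells at P60. The C1q genes, the recognition unit of the classical pathway, were macrophage genes at both ages: C1qa went from 3310 to 5570 CPM (0.81 ± 0.17, edgeR adjusted p = 0.00302), while C1qb did not pass (0.30 ± 0.15, edgeR adjusted p = 0.12). Cfp, properdin, rose in macrophages from 164 to 548 CPM (1.80 ± 0.13, edgeR adjusted p = 1.64e-06). C1qa in P60 Schwann cells was 150, 17.8 and 36.6 CPM, values that differed between the libraries and lay far below those of macrophages.

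Across 42 points (7 classes in 6 libraries) the genes whose log2 level ran most like C3 among 9007 were Inmt (Pearson r = 0.933), C4b (0.928), Myoc (0.904), Serpina3n (0.888) and Pcolce2 (0.881). Those most like C5ar1 were Clec4a2 and Pf4 (0.982 each), Arhgap30 (0.979), Selplg and Nckap1l (0.978 each). The points share libraries and cells, so these values describe likeness and carry no test.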

How the data were processed

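The authors deposited 1 table of raw UMI counts (genes by called cells) per library, made with Cell Ranger 2.0.2, neither normalized nor pooled. The submitters' processing notes name GRCm38.p5, whereas the methods name a human build, and the identifiers are those of mouse genes. Positions came from GENCODE M21 (GRCm38) and promoters from RefSeq (GRCm38.p6), where 5 of 9 genes were found.

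The genes and the lists were chosen with earlier results of these data known, and the thresholds for naming classes were set after the data were seen. Tests of the genes are therefore given beside the share of all genes called and support nothing about the choice of the list.

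Barcodes with 500 to 5000 genes were kept. Cells of each age were clustered with Seurat 5.3.0 in R 4.3.3 (total of 10000, 10 principal components, 30 neighbours, resolution 0.5 at P1 and 0.4 at P60), with complement genes left out of the features, and named from marker lists. Doublets were not removed in the main values. Between 13 and 32 barcodes were shared by pairs of libraries (0.372% to 0.932% of the smaller). UMIs were summed per library and class and tested with edgeR 4.0.16 (quasi-likelihood, TMM, genes kept by filterByExpr, Benjamini-Hochberg adjustment over all genes tested, threshold 0.05). Cells are not replicates, and the spread is that between pooled suspensions. CPM is computed here and counts molecules, so it was not divided by gene length. Intervals and floors (3 UMIs) cover counting error only. The level expected from carried-over fibroblast RNA is the fibroblast level times the ratio of Dcn in the class to Dcn in fibroblasts. Fibroblasts here are the 3 layers summed. Shares at 1500 UMIs are the exact expectation of thinning each cell. The age test was tested on simulated data.

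Named genes are the 9 genes, genes of the wider list with a class level of at least 50 CPM or a called log2 change of at least 1, and the 5 genes most like C3 and most like the member highest in macrophages. Marker and leading genes of sub-clusters were named after their values were seen. Alternatives were DESeq2 1.42.0 and its size factors, library size alone, no filter, a replicate block, each library left out, cells under 10% mitochondrial counts, the highest Scrublet scores left out (2.74% to 3.67% of each library), other clusterings and other limits on Dcn. Some genes and 1 sub-cluster are not reported here.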

Additional observations from a re-analysis of the deposited data

Results flagged for a closer look

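The change of some members between P1 and P60 differed between 2 cell types by a test of the difference itself (edgeR, class-by-age term with the library as a block, adjusted over all genes). Endoneurial fibroblasts changed more than epineurial fibroblasts in Cd55, by 3.28 ± 0.33 on the log2 scale (SE, adjusted p = 1.85e-15), and in C2, by 0.84 ± 0.25 (adjusted p = 0.00599). The epineurial marker list in endoneurial fibroblasts also rose, to 898 to 1343 CPM at P60, and the part of epineurial RNA in these endoneurial changes was not tested. For C4b the fitted difference was 2.76 ± 0.88. It rests on 1 UMI in endoneurial fibroblasts at P1, so no p is given. The ratio of pooled levels of C4b was 194-fold there with a counting interval of 33.1 to 7836, beside 21.9-fold (16.7 to 29.1) in epineurial fibroblasts. For Serping1 the endoneurial change was smaller (difference −0.63 ± 0.08, adjusted p = 6.9e-12). Schwann cells with fewer than 10 Dcn UMIs changed more than endoneurial fibroblasts in Serping1, by 2.76 ± 0.16 (adjusted p = 4.09e-24). The background is wide, since 29.2% of all genes passed the first test and 19.7% the second. Without one library at a time, 3 or 4 of the members passed between the fibroblast layers, with C4b among the members counted.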

How the results depend on the processing

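Of the alternatives, none turned a called change of a member around. The number of members called stayed within 1.5 times its main count in every class but Schwann cells, where leaving out 1 library gave 3 to 5 (5 with all libraries): it was 3 without P1 replicate 1, 2 or 3, or P60 replicate 3, since C2 and Cfd have 14 and 20 UMIs at P60. Without thinning, the difference in the share of cells (P60 minus P1) was −0.55 percentage points for Serping1 in perineurial fibroblasts and −6.71 for C5ar1 in macrophages, the opposite of the thinned direction. C2 in macrophages also turned, from 3.23% and 3.27% of cells (P1, P60) to 13.2% and 7.30% without thinning, as did C3ar1 and C5ar1 in endoneurial fibroblasts, where no share passed 0.626%. In macrophages C5ar1 passed the test without the highest Scrublet scores (0.34, edgeR adjusted p = 0.0318) and without cells of 10 or more Dcn UMIs (0.40, adjusted p = 0.0158), and C2 with a clustering total of 100000 (0.69, adjusted p = 0.0399). The log2 change of C3 moved with its few P1 UMIs, from 7.95 to 9.29 in epineurial fibroblasts when a P1 library was left out, and fell to 5.15 in macrophages and 6.24 in endothelial cells without cells of 10 or more Dcn UMIs. P1 perineurial fibroblasts numbered 1011 and, with another seed, 488.

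The replicate numbers did not pair the libraries, as same-numbered libraries correlated at −0.0843 to 0.0744 in their deviations. With the replicate number as a block the members called stayed at 4, 5, 5, 5, 6 and 5 in endoneurial, epineurial and perineurial fibroblasts, Schwann cells, endothelial cells and macrophages. All genes called in the same order were 4671, 5141, 6632, 3561, 4553 and 3564, beside 5016, 4786, 6427, 4342, 4358 and 3811 without the block. Members that passed the filter on low counts only through P60 are among these calls, so the steady counts are no support for them.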
